A study of Mus musculus with 10 samples.

Results

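Transcripts of 10 inhibitory receptors, the cell-surface proteins that mark exhausted CD8 T cells, were followed in T cells sorted from mouse tumours. The genes were Pdcd1, Havcr2, Lag3, Tigit, Ctla4, Cd160, Cd244a, Entpd1, Cd101 and Btla, taken by their symbol in the GENCODE M21 annotation out of 54337 annotated genes that held a transcript of the deposited tables. All 10 had reads enough to be tested. The question posed by the series title is whether the transcription factor NFAT5 enforces exhaustion in tumour-infiltrating CD8 T cells.

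The T cells recognised P1A, an antigen of the tumour, and received a retroviral vector after 24 hours of activation. They were injected 24 hours later into Rag1-/- B10D2 mice that bore P511, a mastocytoma, which is a mast cell tumour, and CD8 T cells were sorted from the tumours after 7 days. One vector carried CA-RIT NFAT1, a form of NFAT1 known to be constitutively active and unable to pair with the factor AP-1. The second vector carried NFAT5, a family member best known for the response to high salt, and the third carried eGFP alone and served as control. The labels assign 4 libraries to CA-RIT NFAT1, 3 to NFAT5 and 3 to eGFP, each named below by its vector and its sample number. All groups share the transferred P1A-specific T cells, the tumour line and the host. The strain is labelled C57BL/6 although the recipients are described as B10D2, the number and age of the mice are not stated, and nothing says that replicates came from separate animals, so p-values measure the spread between libraries, which may be technical. Rag1-deficient hosts lack their own T and B cells but keep NK and myeloid cells, and the factors were overexpressed from a vector rather than induced.

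Inhibitory receptors are induced when a T cell meets its antigen and stay on while the antigen persists. On binding ligands on tumour or antigen-presenting cells, several of them recruit phosphatases through motifs in their tails, or compete with an activating receptor for its ligand, and so dampen signalling from the T cell receptor. NFAT proteins are activated by calcium signals from that same receptor, and NFAT1 acting without AP-1 is known from earlier work in mice to turn on exhaustion genes, Pdcd1 and Havcr2 among them.

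Total depth lay between 18.8 M and 36.6 M estimated reads (M, 1000000 reads) in 9 libraries, and eGFP 7 held only 51112 reads. The library eGFP 7 had 0 reads of 9 receptors and 1 read of Entpd1, at a depth where 3 counts already equal 58.7 counts per 1000000 reads (CPM). CA-RIT NFAT1 10 was deep but had 1 read of Cd8a, the defining coreceptor of these cells, against 582 to 988 CPM in the 8 libraries that follow. Comparisons therefore used 8 libraries, namely CA-RIT NFAT1 2, 4 and 9, NFAT5 1, 5 and 8, and eGFP 3 and 6, and each comparison also states how its receptor values stood with all 10. Among the 8, eGFP 3 also stood apart, with reads on 13186 genes at the greatest depth, against 15276 to 17255 genes in the other 7. Nfat5 itself had 87.0, 81.6 and 48.0 CPM in the NFAT5 libraries, against 1.12 and 6.88 CPM in the eGFP libraries. Nfatc2, which encodes NFAT1, had 88.8, 63.5 and 30.0 CPM in the CA-RIT NFAT1 libraries, against 4.00 and 47.3 CPM in the eGFP libraries, so its level overlapped between those groups and does not check these labels.

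Per transcript length, the receptors fell into 3 tiers in these cells. Levels in this paragraph are the authors’ deposited TPM, which scale reads by transcript length and depth, summed per gene and averaged over the 8 libraries. Pdcd1, which encodes PD-1, was highest at 304 ± 157 TPM (SD, n = 8) and ranked above 95.3% of the 11485 genes that averaged at least 1 TPM. It was followed by Tigit at 81.7 ± 28.8, Ctla4 at 77.7 ± 33.5, Cd160 at 69.6 ± 24.7, Havcr2 at 63.9 ± 25.4, Entpd1 at 59.0 ± 23.2 and Lag3 at 41.9 ± 32.4 TPM. The low tier held Btla at 5.68 ± 2.26, Cd244a at 4.86 ± 2.39 and Cd101 at 3.03 ± 0.93 TPM. Pdcd1 exceeded Tigit, and Lag3 exceeded Btla, in 8 of 8 libraries. Within the middle tier, neighbours in this order did not differ beyond their spread: Tigit exceeded Ctla4 in 5 of 8 libraries, Ctla4 exceeded Cd160 in 4, Cd160 exceeded Havcr2 in 5, Havcr2 exceeded Entpd1 in 5 and Entpd1 exceeded Lag3 in 6. In the low tier Btla exceeded Cd244a in 6 and Cd244a exceeded Cd101 in 7 of 8.

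**Figure D1:**
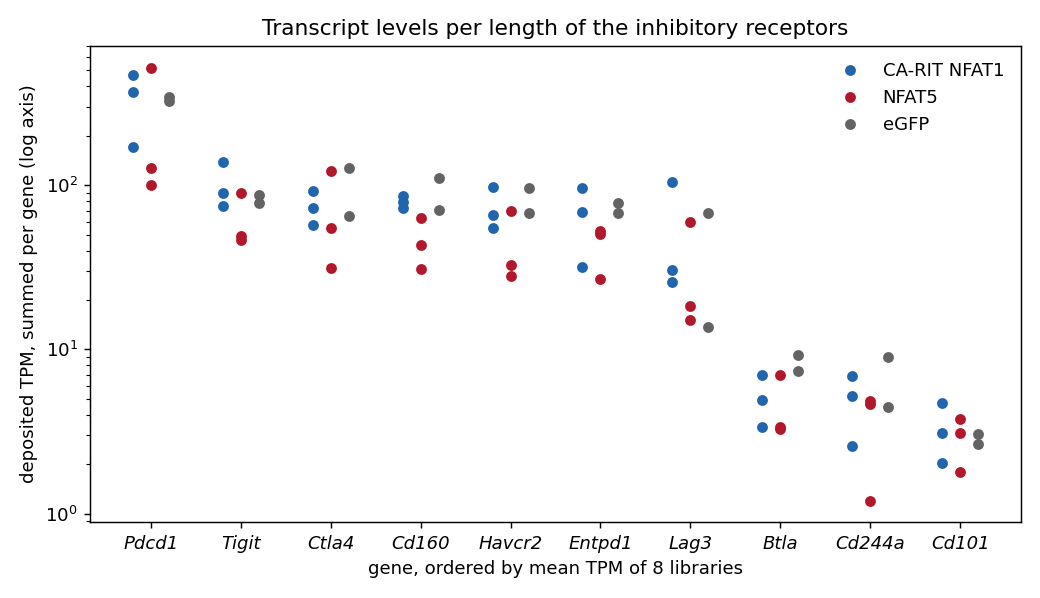
Deposited TPM summed per gene (log axis) of the 10 receptors, ordered by their mean over 8 libraries, with 1 point per library and colours for the CA-RIT NFAT1, NFAT5 and eGFP vectors. Pdcd1 lies above the other 9 genes in every one of the 8 libraries, and Btla, Cd244a and Cd101 lie below the remaining 7.

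Levels below are CPM, that is estimated reads of a gene per 1000000 estimated reads on annotated genes, and they compare libraries within a gene only. In sorted bulk RNA, fewer cells expressing a receptor and less RNA per cell cannot be told apart. Fold changes are from edgeR over the 8 libraries, on the log2 scale with a standard error. A gene was called when its p-value, adjusted over all 14473 genes tested, was below 0.05, and with that rule 0 genes (0%) were called in each of the 3 comparisons. An unadjusted p below 0.05 was found for 1051 genes in NFAT5 against eGFP, 932 in CA-RIT NFAT1 against eGFP and 163 in CA-RIT NFAT1 against NFAT5. DESeq2 called 102, 60 and 1 genes in the same comparisons, none of them a receptor, and limma called none.

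Pdcd1 lies on chromosome 1 (GRCm38, 94038305 to 94052553, minus strand), and PD-1 binds PD-L1 and PD-L2 and recruits the phosphatase SHP2. It had 886, 318 and 730 CPM in CA-RIT NFAT1 2, 4 and 9, 932, 204 and 266 CPM in NFAT5 1, 5 and 8, and 773 and 671 CPM in eGFP 3 and 6. NFAT5 1 held the highest value of all and NFAT5 5 the lowest, so the NFAT5 libraries spanned both other groups and every pair of groups overlapped. The RefSeq promoter window of Pdcd1 is given below, from 250 bases before to 50 bases after the transcription start (GRCm38.p6, chr1:94052504-94052803, minus strand), since Pdcd1 is a known NFAT target and the vectors carry NFAT proteins. Capitals mark matches on either strand to GGAAA, the core that NFAT proteins bind, here read on the opposite strand as TTTCC.
Pdcd1 promoter: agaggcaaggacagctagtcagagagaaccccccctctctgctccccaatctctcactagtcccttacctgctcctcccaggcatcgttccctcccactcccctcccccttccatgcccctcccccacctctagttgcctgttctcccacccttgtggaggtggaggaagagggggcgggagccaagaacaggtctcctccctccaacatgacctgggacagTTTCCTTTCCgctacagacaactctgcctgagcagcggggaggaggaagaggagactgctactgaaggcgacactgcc
The window held 2 such cores, 28 and 23 bases before the start. The best-known NFAT site of Pdcd1 lies farther upstream than this window reaches.

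Havcr2 encodes TIM-3, a receptor for galectin-9, CEACAM1 and phosphatidylserine, and lies on chromosome 11 (46454935 to 46481255, plus strand). It had 292, 169 and 215 CPM in CA-RIT NFAT1 2, 4 and 9, 201, 108 and 94.4 CPM in NFAT5 1, 5 and 8, and 261 and 297 CPM in eGFP 3 and 6. All 3 NFAT5 libraries lay below both eGFP libraries, while the CA-RIT NFAT1 libraries overlapped each of the other groups. The promoter window of Havcr2 (GRCm38.p6, chr11:46454681-46454980, plus strand) is shown because it is one of the windows without an NFAT core. Capitals mark TGATTCA, a match to the AP-1 motif TGANTCA, 200 bases before the start.
Havcr2 promoter: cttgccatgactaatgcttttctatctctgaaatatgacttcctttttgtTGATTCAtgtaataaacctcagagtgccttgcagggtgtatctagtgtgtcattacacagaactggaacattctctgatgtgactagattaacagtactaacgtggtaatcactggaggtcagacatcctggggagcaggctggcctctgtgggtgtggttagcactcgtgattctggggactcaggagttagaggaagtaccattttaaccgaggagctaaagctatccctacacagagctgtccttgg

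Lag3 and Tigit each encode a receptor with several known ligands. Lag3, which encodes a relative of CD4 that binds MHC class II and FGL1, lies on chromosome 6 (124904361 to 124911705, minus strand). It had 155, 47.4 and 41.8 CPM in CA-RIT NFAT1 2, 4 and 9, 88.5, 24.5 and 24.0 CPM in NFAT5 1, 5 and 8, and 24.8 and 105 CPM in eGFP 3 and 6. In each group 1 library exceeded the rest by over 3-fold, and all groups overlapped. Tigit, whose product binds CD155 and CD112 in competition with CD226, lies on chromosome 16 (43648867 to 43664146, minus strand). It had 120, 64.4 and 82.3 CPM in CA-RIT NFAT1 2, 4 and 9, 73.4, 46.1 and 44.1 CPM in NFAT5 1, 5 and 8, and 95.2 and 68.5 CPM in eGFP 3 and 6. NFAT5 5 and 8 lay below every other library, and NFAT5 1 lay between the 2 eGFP libraries.

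Ctla4 encodes the receptor that outcompetes CD28 for CD80 and CD86, and lies on chromosome 1 (60887000 to 60915832, plus strand). It had 151, 102 and 144 CPM in CA-RIT NFAT1 2, 4 and 9, 209, 61.9 and 109 CPM in NFAT5 1, 5 and 8, and 291 and 116 CPM in eGFP 3 and 6. The highest level was in eGFP 3, and all groups overlapped. Among the promoter windows of the receptors, that of Ctla4 (GRCm38.p6, chr1:60908775-60909074, plus strand) was the one with the longer core TGGAAA that NFAT5 prefers, which also contains GGAAA. Capitals mark TTTCCA, which is TGGAAA on the opposite strand, 144 bases before the start.
Ctla4 promoter: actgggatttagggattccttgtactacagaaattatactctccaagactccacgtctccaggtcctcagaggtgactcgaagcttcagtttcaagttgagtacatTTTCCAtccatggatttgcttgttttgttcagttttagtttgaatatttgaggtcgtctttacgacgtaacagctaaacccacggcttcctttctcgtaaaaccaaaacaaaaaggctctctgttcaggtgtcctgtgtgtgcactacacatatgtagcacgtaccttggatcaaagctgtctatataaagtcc

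Cd160 and Btla encode receptors for HVEM, the product of Tnfrsf14. Cd160, whose product is a lipid-anchored receptor of cytotoxic cells, lies on chromosome 3 (96798763 to 96829351, minus strand). It had 81.4, 96.4 and 94.5 CPM in CA-RIT NFAT1 2, 4 and 9, 68.1, 53.9 and 38.4 CPM in NFAT5 1, 5 and 8, and 152 and 81.9 CPM in eGFP 3 and 6. All NFAT5 libraries lay below all libraries of both other groups, and the CA-RIT NFAT1 libraries were the tightest of the 10 receptors in that group, with a highest value 1.19 times the lowest. The exons of Cd160 share 68 bases with Pdzk1 on the opposite strand, and whether reads were counted by strand is not stated. Btla, whose product recruits the phosphatases SHP1 and SHP2, lies on chromosome 16 (45224315 to 45257670, plus strand). It had 19.3, 5.94 and 15.6 CPM in CA-RIT NFAT1 2, 4 and 9, 20.3, 10.8 and 9.09 CPM in NFAT5 1, 5 and 8, and 33.0 and 16.2 CPM in eGFP 3 and 6. Here eGFP 3 was highest and CA-RIT NFAT1 4 lowest, and all groups overlapped. Cd160 was chosen for a promoter window as the receptor that separated the NFAT5 libraries from both other groups. Its window at chr3:96829302-96829601 held 0 matches to GGAAA and is not shown. The Cd160 window shown (GRCm38.p6, chr3:96814472-96814771, minus strand) has its single GGAAA in capitals, 145 bases before the start.
Cd160 promoter: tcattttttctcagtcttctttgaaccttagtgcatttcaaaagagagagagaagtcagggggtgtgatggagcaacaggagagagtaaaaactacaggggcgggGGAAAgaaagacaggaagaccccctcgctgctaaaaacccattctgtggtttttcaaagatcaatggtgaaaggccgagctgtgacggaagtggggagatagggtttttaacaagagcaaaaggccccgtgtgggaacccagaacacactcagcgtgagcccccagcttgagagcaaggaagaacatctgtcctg

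Cd244a encodes 2B4, a SLAM-family receptor for CD48 that can activate or inhibit depending on the adaptor it meets, and lies on chromosome 1 (171559193 to 171609746, plus strand). It had 20.0, 15.7 and 9.04 CPM in CA-RIT NFAT1 2, 4 and 9, 11.7, 15.8 and 4.28 CPM in NFAT5 1, 5 and 8, and 38.0 and 12.2 CPM in eGFP 3 and 6. The lowest value, in NFAT5 8, rests on 98 reads, and eGFP 3 lay above all others while eGFP 6 lay among the NFAT5 libraries. Entpd1 encodes CD39, which breaks down extracellular ATP on the way to immunosuppressive adenosine, and lies on chromosome 19 (40612366 to 40741602, plus strand). It had 139, 88.9 and 61.9 CPM in CA-RIT NFAT1 2, 4 and 9, 97.9, 85.0 and 53.4 CPM in NFAT5 1, 5 and 8, and 146 and 124 CPM in eGFP 3 and 6. All NFAT5 libraries lay below both eGFP libraries, as did CA-RIT NFAT1 4 and 9 but not 2. Cd101, known as a marker of terminally exhausted CD8 T cells in mice, lies on chromosome 3 (100993529 to 101029556, minus strand). It had 15.3, 10.0 and 6.84 CPM in CA-RIT NFAT1 2, 4 and 9, 11.7, 11.0 and 6.47 CPM in NFAT5 1, 5 and 8, and 10.9 and 10.6 CPM in eGFP 3 and 6. Among the 10 receptors it had the narrowest range over the 8 libraries, and the eGFP values lay inside the range of both other groups.

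**Figure D2:**
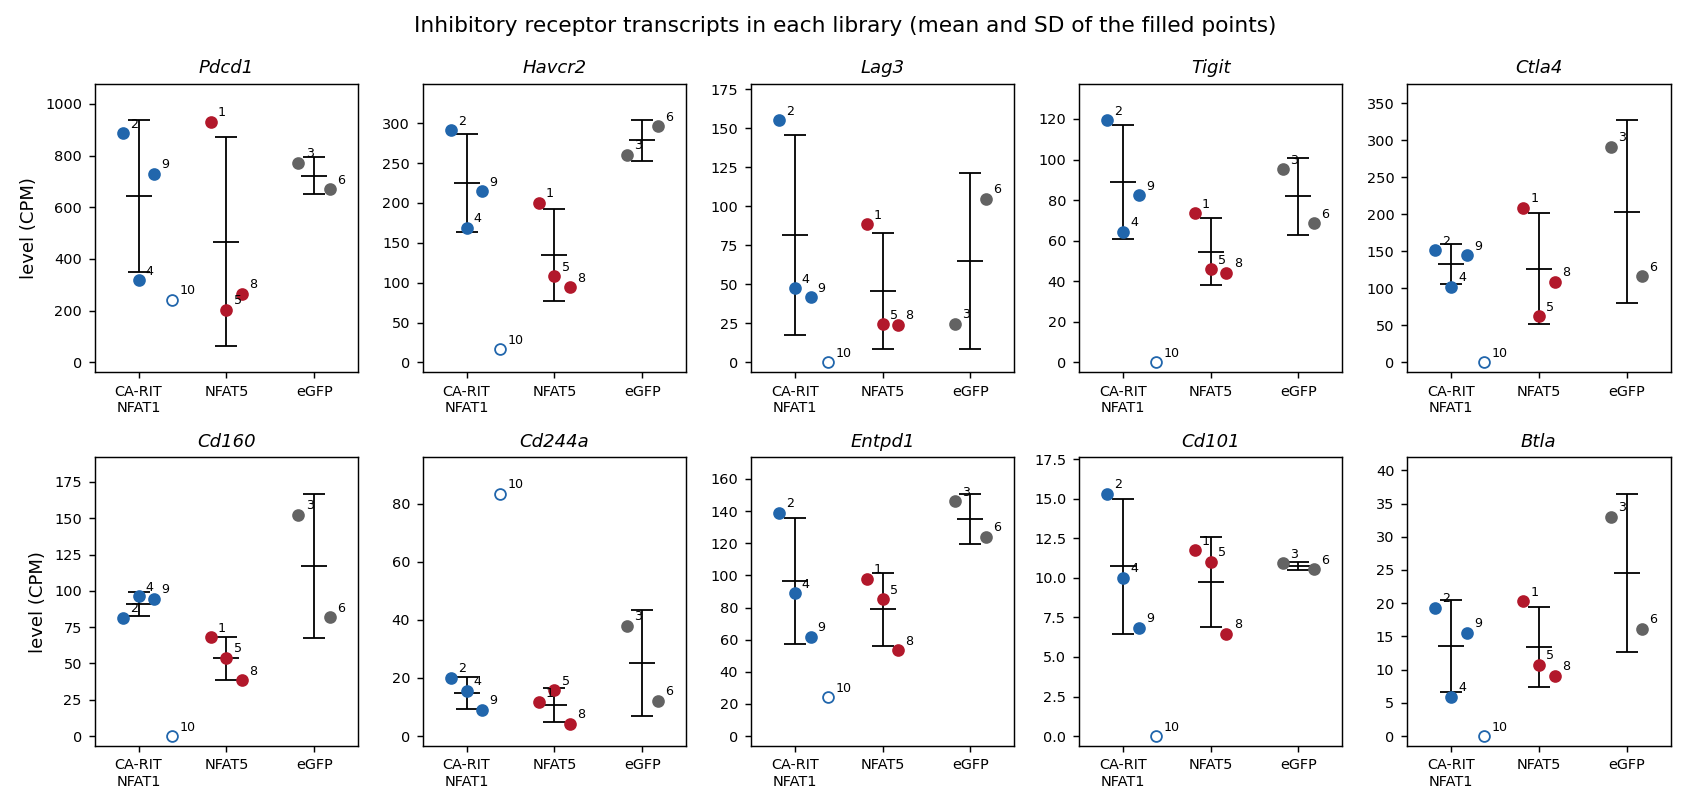
Level in CPM of each receptor, with 1 point per library labelled by its sample number, and the mean and SD of the filled points for CA-RIT NFAT1 (n = 3), NFAT5 (n = 3) and eGFP (n = 2). The open point is CA-RIT NFAT1 10, and eGFP 7 is not drawn. All NFAT5 points lie below both eGFP points for Havcr2, Cd160 and Entpd1, and CA-RIT NFAT1 2 is the highest filled point of its group for every receptor but Cd160.

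Searched on both strands, GGAAA occurred in 7 of the 11 promoter windows that 9 receptors had in the RefSeq table, against 61.4% of all 32841 windows of the same length. The longer TGGAAA, which contains GGAAA, occurred in 1 of 11, against 21.4% of all windows. The AP-1 motif occurred in 2 of 11, in Havcr2 and Cd244a, against 7.81% of all. These are matches of letters in a short window and not bound sites.

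In T cells with the NFAT5 vector, all 10 receptors had lower fitted levels than in eGFP cells, and none passed the adjusted threshold. The 3 that separated the libraries without overlap were Havcr2, Cd160 and Entpd1. Of all genes tested, 8.15% separated the libraries in that direction, and 45.8% had a negative fold change. Havcr2 averaged 134 ± 57.7 CPM in NFAT5 libraries and 279 ± 25.5 CPM in eGFP libraries (SD), a log2 fold change of -1.17 ± 0.34 (edgeR, adjusted p = 0.654, unadjusted p = 0.00815). Cd160 averaged 53.5 ± 14.8 CPM in NFAT5 libraries and 117 ± 49.8 CPM in eGFP libraries, a log2 fold change of -1.26 ± 0.34 (edgeR, adjusted p = 0.654, unadjusted p = 0.00588). Entpd1 averaged 78.8 ± 22.9 CPM in NFAT5 libraries and 135 ± 15.6 CPM in eGFP libraries, a log2 fold change of -0.90 ± 0.36 (edgeR, adjusted p = 0.654, unadjusted p = 0.0384). These 3 were also the receptors with an unadjusted p below 0.05, against 4.01% of all genes in that direction, and no receptor was higher at that level, against 3.25%.

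The other 7 receptors overlapped between NFAT5 and eGFP libraries, with edgeR adjusted p-values of 0.654 to 0.883. Their log2 fold changes were -1.39 ± 0.69 for Cd244a, -1.02 ± 0.61 for Btla, -0.83 ± 0.53 for Ctla4, -0.76 ± 0.63 for Pdcd1, -0.71 ± 0.34 for Tigit, -0.59 ± 0.81 for Lag3 and -0.25 ± 0.51 for Cd101. The median over the 10 receptors was -0.86, beside 0.08 over all genes tested. The summed level of the 12 CD8 T cell markers moved the same way, at 27810 to 29372 CPM in NFAT5 libraries and 34498 to 43200 CPM in eGFP libraries, with none of the 12 at 0. Trbc2 made up most of each sum, with 15593 to 17206 CPM in NFAT5 libraries and 25613 and 22364 CPM in eGFP 3 and 6. Cd3d, Cd3g, Cd247, Cd2 and Trbc1 were also lower in every NFAT5 library than in both eGFP libraries. For Cd8a, Cd8b1, Cd3e, Lck, Thy1 and Trac the groups overlapped. Scaled to T cell lineage genes, the median of all genes moved to 0.47 and that of the receptors to -0.35; Cd101 then stood at 0.19, above 0 but below the median of all genes, as were the other 9. The 4 markers of CD4 and regulatory T cells, in which Ctla4, Tigit and Entpd1 are also known to be high, summed to at most 8.91 CPM in any of the 8 libraries. Dendritic cell markers summed to 207 to 296 CPM in NFAT5 libraries and to 237 and 1055 CPM in eGFP 6 and 3, with 2 to 3 of 8 markers at 0 in eGFP. In eGFP 3 most of the sum came from Cd74 with 565 CPM and H2-Ab1 with 454 CPM. Flt3 and Xcr1 were also highest there, at 3.53 and 8.63 CPM. Itgax went the other way, with 23.7 CPM in eGFP 3 against 92.0 CPM in eGFP 6 and 61.8 to 125 CPM in NFAT5 libraries. Mast cell and P511 markers summed to 152 to 265 CPM in NFAT5 libraries and to 263 and 58.3 CPM in eGFP 3 and 6. Of that list, Kit, Gata2 and Hdc were lower in eGFP 3 than in eGFP 6. Macrophage and monocyte markers summed to 101 to 245 CPM in NFAT5 libraries and to 216 and 225 CPM in eGFP 3 and 6. The part of these markers in the result was not tested.

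The 2 eGFP libraries decided much of the size. Without eGFP 6, only eGFP 3 was left as control and the number of genes called was 3294, Cd160 among them at -1.68 (edgeR, adjusted p = 0.00651), while Lag3 stood at 0.70. Without eGFP 3 no gene was called, Ctla4 stood at 0.09, Cd244a at -0.23 and Cd160 at -0.65. Havcr2 stayed between -1.54 and -0.97 and Entpd1 between -1.06 and -0.69 whichever of the 8 libraries was left out. NFAT5 1 held the highest NFAT5 level of 9 receptors, and without it 8 receptors lay lower in NFAT5 with no overlap, against 13.6% of all genes. Without eGFP 6 that number was 7, against 27.6% of all genes, a share that is higher with a single control library. With all 10 libraries it was 0, against 0.076% of all genes, as eGFP 7 had 0 reads of 9 receptors and 1 read of Entpd1. The fold changes with all 10 libraries stayed below 0 for all 10 receptors with a median of -0.75, and Pdcd1 moved most in proportion, to -0.38 ± 0.86.

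**Figure D3:**
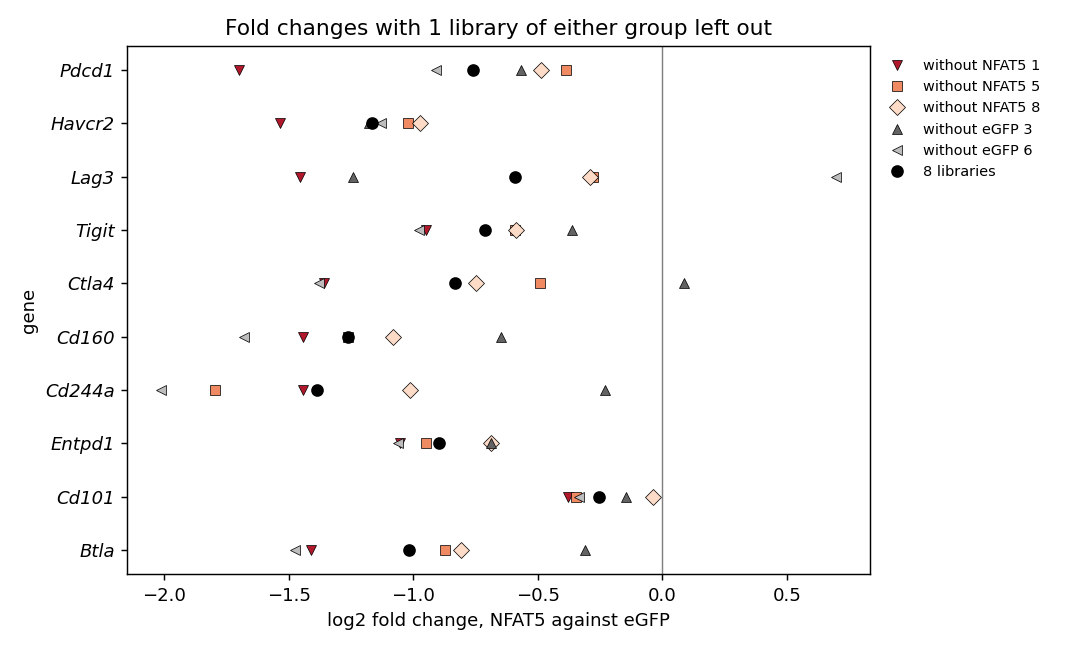
Log2 fold change of each receptor in NFAT5 against eGFP cells over 8 libraries (black circles) and with 1 NFAT5 or eGFP library left out (other symbols). Havcr2, Cd160 and Entpd1 stay below 0 throughout, while Lag3 reaches 0.70 without eGFP 6 and Ctla4 reaches 0.09 without eGFP 3.

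Between CA-RIT NFAT1 and eGFP cells no receptor differed beyond the spread between libraries. None passed the adjusted threshold, none had an unadjusted p below 0.05, against 3.16% of all genes in the lower direction and 3.28% in the higher, and none separated the libraries, against 6.7% of all genes in the lower direction and 14.2% in the higher. Fitted levels were lower for 9 receptors, against 45.3% of all genes, and higher for Lag3, against 54.6%. The log2 fold changes were -1.01 ± 0.61 for Btla, -0.91 ± 0.69 for Cd244a, -0.77 ± 0.53 for Ctla4, -0.62 ± 0.37 for Entpd1, -0.51 ± 0.35 for Cd160, -0.44 ± 0.34 for Havcr2, -0.30 ± 0.64 for Pdcd1, -0.14 ± 0.51 for Cd101, -0.03 ± 0.34 for Tigit and 0.23 ± 0.82 for Lag3 (edgeR, adjusted p from 0.679 to 0.985). Their median was -0.47, beside 0.10 over all genes. The count of lower receptors rests on eGFP 3: without it 6 stood below 0, while Tigit stood at 0.32, Ctla4 at 0.14, Cd160 at 0.11 and Cd244a at 0.24, and Lag3 stood at -0.43. With all 10 libraries 9 stood below 0, with Cd244a at 0.15 and Lag3 at -0.08. Group means were 645 ± 293 CPM in CA-RIT NFAT1 and 722 ± 72.0 CPM in eGFP for Pdcd1, and 225 ± 62.0 CPM in CA-RIT NFAT1 and 279 ± 25.5 CPM in eGFP for Havcr2 (SD). The 12 CD8 T cell markers summed to 29405 to 34966 CPM in CA-RIT NFAT1 and 34498 to 43200 CPM in eGFP libraries. The T cell lineage genes used for scaling are those markers without Trac, Trbc1 and Trbc2. Scaled to them, the median of all genes moved to 0.46 and that of the receptors to -0.03. All 10 receptors then lay below the median of all genes.

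Set directly against NFAT5 cells, CA-RIT NFAT1 cells had higher fitted levels of all 10 receptors, against 50.5% of all genes higher and 49.5% lower, and again none passed the adjusted threshold (edgeR, adjusted p = 1.00 for each). Cd160 alone separated the libraries, against 4.06% of all genes in that direction and 2.77% in the other. It averaged 90.8 ± 8.19 CPM in CA-RIT NFAT1 and 53.5 ± 14.8 CPM in NFAT5 libraries, a log2 fold change of 0.75 ± 0.31 (unadjusted p = 0.0416 in edgeR). Havcr2 averaged 225 ± 62.0 CPM in CA-RIT NFAT1 and 134 ± 57.7 CPM in NFAT5 libraries, a log2 fold change of 0.73 ± 0.31 (unadjusted p = 0.0438 in edgeR). These were the 2 receptors with an unadjusted p below 0.05, against 0.788% of all genes in that direction. The remaining fold changes were 0.82 ± 0.74 for Lag3, 0.68 ± 0.31 for Tigit, 0.47 ± 0.63 for Cd244a, 0.46 ± 0.57 for Pdcd1, 0.27 ± 0.33 for Entpd1, 0.12 ± 0.46 for Cd101, 0.06 ± 0.48 for Ctla4 and 0.00 ± 0.55 for Btla. The median was 0.47, beside 0.00 over all genes. CA-RIT NFAT1 2 carried part of this: without it the median was 0.09 and 5 receptors stayed above 0, while without NFAT5 1 the median was 0.77 and without NFAT5 8 it was 0.14. With all 10 libraries the median was 0.23 and 6 receptors stood above 0, among them Cd160 at 0.34 ± 1.33 and Havcr2 at 0.35 ± 0.79. The 3 comparisons use the same 8 libraries in pairs of groups, so both comparisons with eGFP share its libraries, and both comparisons that involve NFAT5 share the NFAT5 libraries.

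**Figure D4:**
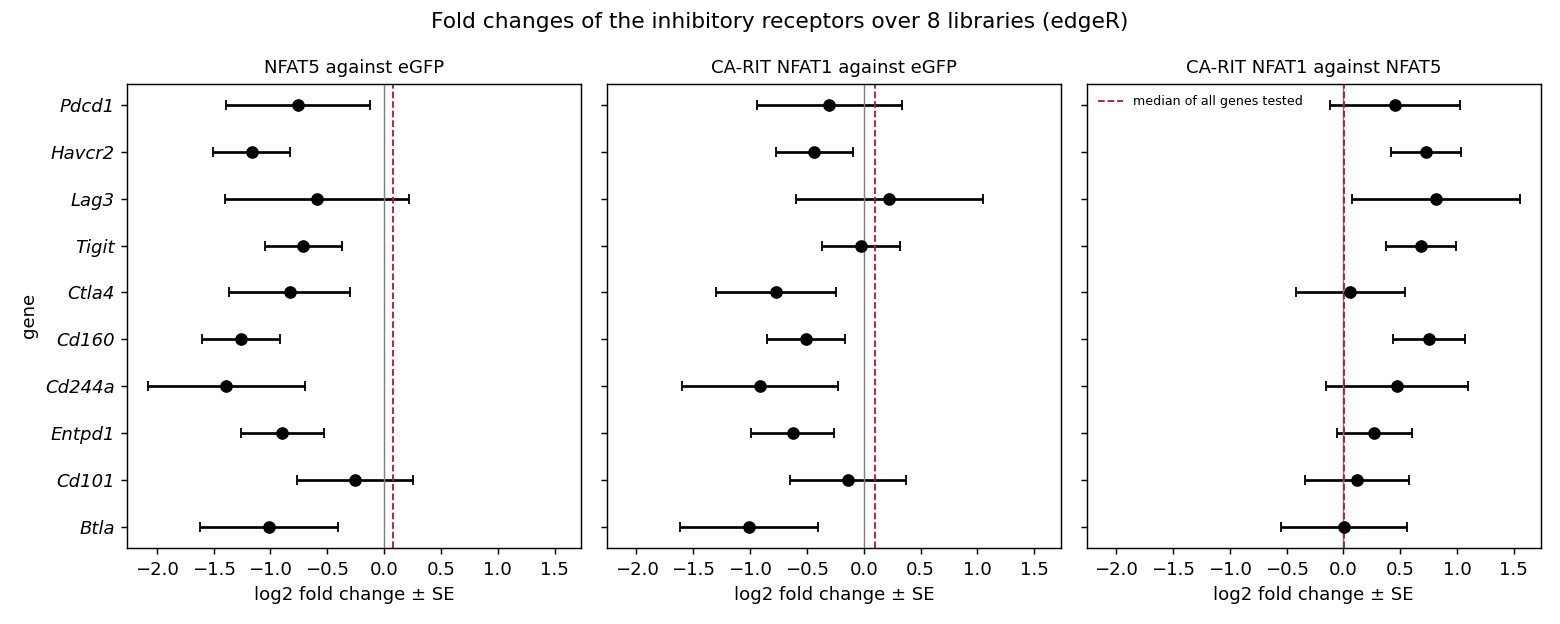
Log2 fold change with its SE of each receptor in the 3 comparisons over 8 libraries, with the median of all genes tested as a dashed line. All 10 points lie left of 0 for NFAT5 against eGFP, 9 do so for CA-RIT NFAT1 against eGFP, and all 10 lie at or right of 0 for CA-RIT NFAT1 against NFAT5.

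Libraries of one group also differed from each other, with 1 or 2 libraries high or low for most receptors. CA-RIT NFAT1 2 was the highest of its 3 libraries for 9 receptors and stood above the mean of the 8 libraries for all 10. NFAT5 1 was the highest of its group for 9 receptors, and NFAT5 8 was the lowest for 8 and stood below the mean of the 8 libraries for all 10. In the eGFP pair, eGFP 3 was the higher for 8 receptors, and Havcr2 and Lag3 were higher in eGFP 6. The ratio of highest to lowest library within a group reached 4.57 for Pdcd1 in NFAT5 and had a median over receptors of 2.23 in CA-RIT NFAT1, 2.18 in NFAT5 and 1.62 in eGFP libraries.

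**Figure D5:**
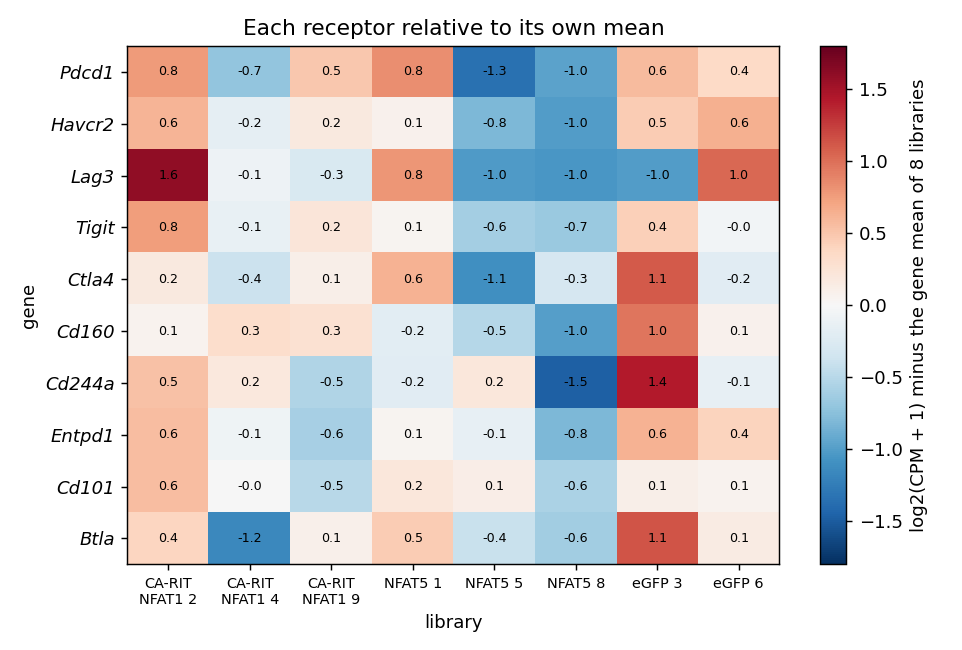
Level of each receptor in each of the 8 libraries as log2(CPM + 1) minus the gene's own mean, with libraries in columns by group (CA-RIT NFAT1, NFAT5, eGFP) and red for higher. All 10 receptors are above their mean in CA-RIT NFAT1 2 and below it in NFAT5 8, and Lag3 differs from the others in eGFP 3, at -0.999.

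Profiles were compared over the 8 libraries by the root mean square difference of log2(CPM + 1) after centring each gene, among 9297 genes that averaged at least 5 CPM. All of these points share library depth and cell makeup, so the likeness is a description. Of the receptors themselves, Entpd1 and Cd101 were closest to one another, with a difference of 0.26, followed by Havcr2 and Tigit with 0.28. Lag3 was farthest from the rest, its nearest receptor being Havcr2 with 0.71. Among all genes, Havcr2 was nearest to Myb, a transcription factor of progenitor and memory-like cells, with 0.16, followed by Gm17745 and Zfyve1. Lag3 was nearest to Il10ra, a subunit of the interleukin-10 receptor, with 0.21, then to Themis2 and Ankzf1. Tigit was nearest to Sh2d2a, an adaptor of T cell signalling, with 0.13, then to Dusp14, a phosphatase, and Chst11. Pdcd1 was nearest to Ptger2, a prostaglandin E2 receptor, with 0.28, then to Filip1l and Klhl24. Ctla4 was nearest to Slc37a3, Pik3c3 and Ube2w, Cd160 to Sumf1, Pick1 and Insig2, and Btla to Twnk, Zbtb48 and Fam213a, all with differences of 0.18 to 0.25. Cd101 was nearest to Tnik with 0.07, then to Dok1 and Btg1, and its own profile varied least of the 10, with a root mean square of 0.35 about its mean. Cd244a was nearest to Fgd3 with 0.29, then to Cd200r1, another inhibitory receptor, and Sirt5, and Entpd1 to ENSMUSG00000102976, Gm48942 and Pld3 with 0.16 each.

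Estimated reads were also split over annotated transcripts. Pdcd1 and Tigit have 1 annotated transcript each, and in Havcr2, Ctla4, Cd160 and Lag3 the main transcript took at least 91.1% of the gene's reads in each of the 8 libraries. The minor Havcr2-202 lacks 147 bases of the 339-base exon that encodes the ligand-binding immunoglobulin domain. It took 7.79%, 6.65% and 3.89% of Havcr2 reads in CA-RIT NFAT1 2, 4 and 9, 8.91%, 8.72% and 8.85% in NFAT5 1, 5 and 8, and 2.15% and 5.17% in eGFP 3 and 6. The NFAT5 libraries thus had the highest shares and the eGFP 3 library the lowest, and the 95% Wilson intervals of NFAT5 1 (8.15% to 9.73%) and eGFP 6 (4.69% to 5.70%) do not meet. Such intervals cover counting error only, since reads are not independent molecules, and the shares are Salmon's estimates. The minor Ctla4-202 lacks the 110-base exon that encodes the membrane anchor and corresponds to the known soluble form. It took 4.16%, 2.67% and 1.74% of Ctla4 reads in CA-RIT NFAT1 2, 4 and 9, 2.60%, 2.41% and 2.45% in NFAT5 1, 5 and 8, and 0.668% and 2.75% in eGFP 3 and 6, so that the groups overlapped. The exon pieces absent from these transcripts are shown whole (GENCODE M21, GRCm38.p6), at chr11:46456285-46456431 and chr1:60913219-60913328, both on the plus strand, and no letters are marked.
Havcr2 piece absent from Havcr2-202: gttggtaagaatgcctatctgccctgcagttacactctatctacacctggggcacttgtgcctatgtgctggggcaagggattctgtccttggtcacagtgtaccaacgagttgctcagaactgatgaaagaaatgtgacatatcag
Ctla4 exon absent from Ctla4-202: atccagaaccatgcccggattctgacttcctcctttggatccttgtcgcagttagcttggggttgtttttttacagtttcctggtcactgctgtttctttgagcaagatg

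Cd160-203, which lacks a 132-base exon, took 5.17%, 5.09% and 5.74% of Cd160 reads in CA-RIT NFAT1 2, 4 and 9, 6.69%, 8.00% and 3.99% in NFAT5 1, 5 and 8, and 0.252% and 6.57% in eGFP 3 and 6. The eGFP 3 library was again the one apart, as it was for Havcr2-202 and Ctla4-202. Btla-201, the shorter protein-coding Btla transcript, took 16.2%, 23.3% and 17.3% of Btla reads in CA-RIT NFAT1 2, 4 and 9, 12.7%, 15.3% and 25.5% in NFAT5 1, 5 and 8, and 5.48% and 10.2% in eGFP 3 and 6. Both eGFP libraries lay below all others, although the counts were small, with 41 reads of this transcript in eGFP 6. The Cd101 transcripts differ mainly in their first exon, and Cd101-201 took 0%, 17.9% and 0% of Cd101 reads in CA-RIT NFAT1 2, 4 and 9, 38.1%, 12.1% and 0% in NFAT5 1, 5 and 8, and 52.6% and 100% in eGFP 3 and 6. With 148 to 455 reads of Cd101 in a library, such a split between near-identical transcripts is uncertain. Most Entpd1 reads, 61.5% to 76.0%, were assigned to Entpd1-204.

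Genes around the receptors were read from 5 lists of their ligands, signalling partners, activating counterparts, the adenosine pathway and other inhibitory receptors, and 0 of these genes passed the adjusted threshold in any comparison. In the ligand list 13 of 15 genes were tested. Lgals3, encoding galectin-3, which binds LAG-3, averaged 1007 CPM in NFAT5, 1017 CPM in CA-RIT NFAT1 and 1470 CPM in eGFP libraries, a log2 fold change of -0.66 ± 0.21 for NFAT5 (unadjusted p = 0.0133) and -0.67 ± 0.21 for CA-RIT NFAT1 (unadjusted p = 0.0129) in edgeR. Cd80, a ligand of CTLA-4 and CD28, averaged 30.6 CPM in CA-RIT NFAT1 and 12.6 CPM in NFAT5 libraries, with a log2 fold change of 1.27 ± 0.33 (unadjusted p = 0.00439). These 2 were the ligand genes with an unadjusted p below 0.05 in any comparison. The list's medians were -0.10 for NFAT5 and -0.01 for CA-RIT NFAT1 against eGFP and -0.08 for CA-RIT NFAT1 against NFAT5, beside 0.08, 0.10 and 0.00 over all genes.

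Of the 18 signalling partners tested of 19, Ptpn6, encoding the phosphatase SHP1, averaged 253 CPM in CA-RIT NFAT1, 152 CPM in NFAT5 and 159 CPM in eGFP libraries. Its log2 fold change was 0.55 ± 0.23 against eGFP (unadjusted p = 0.0436) and 0.73 ± 0.20 against NFAT5 (unadjusted p = 0.00705) in edgeR. No partner had an unadjusted p below 0.05 for NFAT5 against eGFP, where the largest fold changes were 1.45 ± 1.61 for Lrba, which guides recycling of CTLA-4, and 1.32 ± 2.32 for Sh2d1b1, which encodes an adaptor of 2B4. The medians were 0.26, 0.31 and -0.01 in the same 3 comparisons.

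All 6 activating receptors and ligands that share partners with the inhibitory ones were tested, with medians of -0.52 and -0.36 for NFAT5 and CA-RIT NFAT1 against eGFP and 0.06 between them. Cd2, an adhesion receptor for CD48, averaged 504 CPM in NFAT5, 579 CPM in CA-RIT NFAT1 and 943 CPM in eGFP libraries. Its log2 fold changes against eGFP were -1.03 ± 0.29 (unadjusted p = 0.00659) and -0.85 ± 0.29 (unadjusted p = 0.0175) in edgeR. The eGFP mean was raised by eGFP 3, with 1240 CPM, against 647 CPM in eGFP 6 and 595 CPM in CA-RIT NFAT1 2. Cd96, a CD155 receptor related to TIGIT, averaged 206 CPM in CA-RIT NFAT1, 133 CPM in NFAT5 and 197 CPM in eGFP libraries, with log2 fold changes of -0.68 ± 0.28 for NFAT5 against eGFP (unadjusted p = 0.0376) and 0.61 ± 0.25 for CA-RIT NFAT1 against NFAT5 (unadjusted p = 0.0394). Tnfsf14, encoding the HVEM ligand LIGHT, had log2 fold changes of -2.18 ± 0.93 for NFAT5 (unadjusted p = 0.0462) and -2.85 ± 0.94 for CA-RIT NFAT1 (unadjusted p = 0.0158) against eGFP. It averaged 4.99 CPM in NFAT5 and 3.17 CPM in CA-RIT NFAT1 libraries, and the eGFP libraries held 37.1 and 3.64 CPM, so that the difference rests on eGFP 3.

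In the adenosine pathway 6 of 7 genes were tested, and Entpd1 itself was the one with an unadjusted p below 0.05. The largest other fold changes were 0.85 ± 0.46 for Ada, encoding adenosine deaminase, and 0.70 ± 0.44 for Adora2a, encoding an adenosine receptor, in CA-RIT NFAT1 against eGFP. Against NFAT5, they were 0.65 ± 1.25 for Nt5e, encoding the next enzyme CD73, and 0.43 ± 0.41 for Ada. The medians were 0.32, 0.27 and 0.15.

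Of 36 other inhibitory receptors 32 were tested, with medians of -0.36 and 0.05 for NFAT5 and CA-RIT NFAT1 against eGFP and 0.27 between them. Klrc1, encoding NKG2A, averaged 317 CPM in NFAT5 and 453 CPM in eGFP libraries, a log2 fold change of -0.63 ± 0.22 (unadjusted p = 0.0223 in edgeR). The list also holds Tnfrsf4, Tnfrsf9 and Tnfrsf18, which encode OX40, 4-1BB and GITR, receptors best known for costimulation rather than inhibition. They averaged 22.2, 287 and 97.0 CPM in NFAT5 libraries and 150, 936 and 199.6 CPM in eGFP libraries. The eGFP means were carried by eGFP 3, where they had 255, 1322 and 264 CPM, against 44.3, 551 and 135 CPM in eGFP 6. NFAT5 1 held 50.2 CPM of Tnfrsf4 and 136.9 CPM of Tnfrsf18, above eGFP 6 for both. Their log2 fold changes in NFAT5 against eGFP were -2.93 ± 1.05 (unadjusted p = 0.0224), -1.85 ± 0.55 (unadjusted p = 0.00951) and -1.18 ± 0.38 (unadjusted p = 0.0145). Tnfrsf18 also had -0.94 ± 0.38 in CA-RIT NFAT1 against eGFP (unadjusted p = 0.0386). Cd22, which encodes an inhibitory receptor of B cells, averaged 2.01 CPM in CA-RIT NFAT1 libraries, of which 1 was at 0. It had 0 reads in both eGFP libraries, so that mean is at least 41.0-fold higher than 3 counts over the eGFP group. Cd22 had similarly low levels in NFAT5 1, 5 and 8, at 1.69, 2.77 and 0 CPM, and so was not particular to CA-RIT NFAT1. Between CA-RIT NFAT1 and NFAT5 the largest fold changes were -2.34 ± 2.40 for Klra3 and 1.73 ± 1.78 for Pilra, both below 1 CPM in each library of these groups.

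CA-RIT NFAT1 10 gave a view of the receptors in a library with little T cell RNA. Its 12 CD8 T cell markers summed to 340 CPM, most of it from Cd247 with 120 CPM and Cd3g with 119 CPM. In the 8 libraries Cd247 had 390 to 567 CPM and Cd3g 508 to 1284 CPM. The other CD8 T cell markers had at most 41.2 CPM in CA-RIT NFAT1 10, reached by Trbc2. Its mast cell and P511 markers summed to 5146 CPM with 4 of 10 at 0. Its macrophage markers summed to 4333 CPM with 0 of 12 at 0, of which Chil3 alone had 2997 CPM. Every macrophage marker was higher there than in any of the 8 libraries except Itgam, which had 27.9 CPM, within their range. Its dendritic cell markers summed to 3836 CPM with 6 of 8 at 0. Lag3, Tigit, Ctla4, Cd160, Cd101 and Btla had 0 reads there, where 3 counts equal 0.0923 CPM. Pdcd1 still had 7878 reads or 242 CPM, Cd244a 2711 reads or 83.4 CPM, Entpd1 790 reads or 24.3 CPM and Havcr2 527 reads or 16.2 CPM. Cd244a was thus higher there than in any of the 8 libraries, where it reached at most 38.0 CPM, and Pdcd1 was within their range. Cpa3, a mast cell protease gene, had 1859 CPM in this library and at most 66.1 CPM in the 8, a level reached in eGFP 3. The part of such RNA in the receptor levels of the 8 libraries was not tested.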

How the data were processed

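RNA from CD8 T cells sorted out of tumours was sequenced in 10 libraries of 3 vector groups. The submitters' processing notes name Salmon 0.14.1 as the quantifier, with GRCm38.p6 and mm10 as builds. The authors' deposited estimated counts, which are fractional, were made per transcript by Salmon, and the deposited TPM values are its length-scaled levels, per the file headers. The deposited lengths were used only for average transcript lengths. Of 140919 transcripts, 139966 matched GENCODE M21 and at most 0.292% of a library's reads were left unmatched.

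Estimated reads were summed per gene, rounded and tested with edgeR 4.0.16 (quasi-likelihood, TMM scaling, default low-count filter, Benjamini-Hochberg adjustment at 0.05) in R 4.3.3, over 8 libraries without eGFP 7 and CA-RIT NFAT1 10. The biological coefficient of variation was 0.73. Depth was 18.8 M to 36.6 M reads (M, 1000000). The fit was checked on simulated data that varied less between libraries than these do, so that check does not cover the spread seen here. Alternatives were other library sets, scalings, filters, average length offsets, DESeq2 1.42.0 and limma 3.58.1. The T cell lineage scaling used the CD8 T cell markers without Trac, Trbc1 and Trbc2. Receptors and lists were chosen with earlier results of these data known. All 10 receptors are described; of each list, genes with an unadjusted p below 0.05 are named, otherwise the 2 largest fold changes, and for each receptor the 3 nearest profiles. Promoter sequences are from RefSeq (GRCm38.p6), with motifs searched on both strands.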

Additional observations from a re-analysis of the deposited data

Results flagged for a closer look

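Among the 4 CA-RIT NFAT1 libraries, library 10 passed a gap limit, given below, for 2 of the 10 receptors examined. It was also the lowest of the 4 for all the remaining receptors, with gaps under that limit. Lag3, Tigit, Ctla4, Cd101 and Btla had 0 reads in library 10. Cd160 had 0 CPM in it, against 81.4, 96.4 and 94.5 CPM in libraries 2, 4 and 9. Cd244a had 83.4 CPM in it, against 20.0, 15.7 and 9.04 CPM in libraries 2, 4 and 9. Both were picked out because the gap between library 10 and its nearest neighbour took up 0.844 and 0.852 of the whole range, above the limit of 0.829 for 4 samples. Chance picks out about 1 in 20 groups by this rule. The same library had 1 read of Cd8a and 1859 CPM of Cpa3, and the part of either in these values was not tested.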

How the results depend on the processing

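Of 600 receptor fold changes recomputed under alternatives, 552 kept their direction and side of the threshold, 47 changed sign and 1 passed the threshold newly, and no receptor called by edgeR was at stake, since none was called over 8 libraries. Sign changes fell on 3 receptors in NFAT5 against eGFP, 7 in CA-RIT NFAT1 against eGFP and 5 in CA-RIT NFAT1 against NFAT5. DESeq2 called 102 genes (73 higher, 29 lower), 60 genes (44 higher, 16 lower) and 1 gene in these comparisons. Leaving out 1 library at a time gave 0 to 3294 and 0 to 3410 genes called against eGFP, both maxima without eGFP 6, and 0 to 1 receptors called in NFAT5 against eGFP. Receptors separating the libraries in either direction are given with the share of all genes that did so. In NFAT5 against eGFP they numbered 3 (22.3%), 0 with all 10 libraries (14.1%) and 3 to 8 with 1 left out, the 8 without NFAT5 1 (34.8%). In CA-RIT NFAT1 against eGFP they numbered 0 (20.9%), 1 with TMM-scaled CPM (21.2%), 1 with deposited TPM (21.2%) and 0 to 6 with 1 left out, the 6 without eGFP 6 (72.9%). In CA-RIT NFAT1 against NFAT5 they numbered 1 (6.83%), 0 with all 10 libraries (3.34%) and 1 to 5 with 1 left out, the 5 without NFAT5 1 (23.8%). These counts with single libraries left out were chosen after seeing the data.

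Scaled to T cell lineage genes, Cd101 stood at 0.19 in NFAT5 against eGFP, Pdcd1 at 0.13, Tigit at 0.42 and Cd101 at 0.26 in CA-RIT NFAT1 against eGFP, and Btla at -0.04 in CA-RIT NFAT1 against NFAT5. In CA-RIT NFAT1 against eGFP, Lag3 stood at -0.081 with all 10 libraries and -0.18 with CA-RIT NFAT1 10 put back, and Cd244a at 0.15 and 0.054. Tigit there stood at 0.047 with eGFP 7 put back and 0.027 with average length offsets. In CA-RIT NFAT1 against NFAT5, with all 10 libraries and with CA-RIT NFAT1 10 put back, Ctla4 stood at -0.35 and -0.36, Entpd1 at -0.041 and -0.044, Cd101 at -0.301 and -0.300, and Btla at -0.41 and -0.42. Btla there also stood at -0.00034 with RLE scaling, -0.00045 with DESeq2 and -0.25 with limma. The cause was not tested.

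With 1 library left out, log2 fold changes ranged as follows in NFAT5 against eGFP: Lag3 -1.45 to 0.70 and Ctla4 -1.38 to 0.087, while Cd160 reached -1.68 without eGFP 6. In CA-RIT NFAT1 against eGFP they ranged from -0.56 to 0.013 for Pdcd1, -0.58 to 1.51 for Lag3, -0.29 to 0.32 for Tigit, -1.32 to 0.14 for Ctla4, -0.92 to 0.11 for Cd160, -1.54 to 0.24 for Cd244a and -0.44 to 0.10 for Cd101. In CA-RIT NFAT1 against NFAT5 they ranged from -0.011 to 1.71 for Lag3, -0.26 to 0.60 for Ctla4, -0.048 to 0.51 for Entpd1, -0.19 to 0.35 for Cd101 and -0.30 to 0.42 for Btla. Where eGFP is left with 1 library, that library is assumed to vary like the other groups. No paired analysis was possible because the groups share no replicate numbers. The number of libraries and their spread limit what can be called. Cd101, Cd244a and Btla had the lowest levels of the receptors, and the part of depth in their spread was not tested.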
